A study of Rattus norvegicus with 28 samples.

Results

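The genes described here encode matrix metalloproteinases, their relatives of the ADAMTS family and the tissue inhibitors of metalloproteinases, in cells of transplanted rat hearts. They were chosen by name as Adamts1, Adamts4, Adamts9, Mmp2, Mmp9, Mmp12, Mmp14, Timp1, Timp2 and Timp3. All 10 were measured, among 14217 genes with a probe set on the arrays, and where a gene had several probe sets the brightest in endothelium on average stands for it. Gene positions are those of the rat build GRCr8 in RefSeq. No gene was removed by a filter on dim signals.

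Endothelial preparations of male rats of 8 kinds, with 3 replicates of each, were hybridized to 24 Affymetrix arrays. They came from DA (Dark Agouti) hearts grafted into Lewis recipients and taken on day 2, 3 or 4 (allografts), normal DA hearts that had not been transplanted, Lewis hearts grafted into Lewis recipients and taken on the same days (isografts), and normal Lewis hearts. Grafts had been placed in the neck with a cuff technique, and cells carrying CD31 had been collected after those carrying CD45 had been removed. Leukocytes from allografts, labelled as Lewis, were measured on 4 more arrays, 1 of day 2, 2 of day 3 and 1 of day 4. Ages and the number of animals behind an array are not given in the sources used here, so a p-value here reflects only how much the arrays of a group varied, which may be technical.

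Proteases of these families cut collagens, elastic fibres and proteoglycans of the extracellular matrix, and they release growth factors held in it. The secreted forms are made with an inhibitory propeptide, which is removed on activation, and the TIMP proteins bind the active zinc site. In vessels such enzymes are known to open the basement membrane for migrating leukocytes and sprouting endothelial cells. ADAMTS enzymes cut proteoglycans such as versican and aggrecan, and Timp3 is their main inhibitor among the TIMPs.

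The values are log2 signals per probe set, on which a difference of 1 is a doubling of signal, and levels of different probe sets are not compared. Pecam1, which encodes CD31, was at 10.99 to 12.35 log2 in the endothelial preparations and at 8.68 to 10.39 log2 in leukocytes. The 11 endothelial markers had summed linear signals of 45750 to 51068 on allograft day 2 and 42910 to 50082 on day 4. Normal DA endothelium had 54706 to 61302, which day 3 overlapped at 49480 to 56530. In isografts the sums were 49259 to 57736, against 52666 to 61267 in normal Lewis endothelium. Kdr fell on allograft days 2 and 4 (-1.04 and -0.60 log2), and Vwf rose on day 2 (0.72 log2). Tek and Emcn fell on day 4 (-0.55 and -0.42 log2), and none of the 11 passed in isografts. Ptprc, which encodes CD45, had 7.80 to 9.50 on allograft and 5.93 to 8.21 on isograft arrays, against 5.29 to 5.68 on arrays of normal endothelium, and 12.36 to 12.69 on leukocyte arrays. The leukocyte arrays were taken to have been normalized apart from the others, from their array medians. The grafts' endothelial preparations thus carried more leukocyte transcript than those of normal hearts. In such bulk preparations more cells of a type and more RNA per cell cannot be told apart. The macrophage list, 11 genes measured, had a summed linear signal of 7900 to 26904 in allografts, against 948 to 1189 in normal DA endothelium. In isografts it was 5554 to 23671, against 1032 to 1537 in normal Lewis endothelium. For the 9 fibroblast genes these sums were 2717 to 48137 in allografts, against 1869 to 3886 in normal DA endothelium, and 2394 to 20721 in isografts, against 1748 to 3452 in normal Lewis endothelium. T cell genes, 8 measured, rose in allografts (3, 5 and 8 on days 2, 3 and 4) and in isografts (1, 1 and 2). Cardiomyocyte genes, 8 measured, fell in allografts (2, 0 and 3) and in isografts (3, 5 and 4), and 5 of them were lower in normal DA than in normal Lewis endothelium. Their summed linear signal was 466 to 964 in allografts, against 666 to 1289.5 in normal DA endothelium, and 765 to 1386 in isografts, against 2122 to 5058 in normal Lewis endothelium. The part of these cells in the results was not tested.

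Adamts4, Timp1 and Mmp14 rose in graft endothelium of both kinds, and none of the 10 genes fell. The isograft calls of Mmp14 and its allograft day 2 call came from 1 of its 2 probe sets. Its isograft day 3 call was lost without any 1 array of the groups compared. In limma's test with Benjamini-Hochberg adjustment over all genes, at an adjusted p under 0.05, 3, 1 and 3 of the 10 genes rose in allografts on days 2, 3 and 4 against normal DA endothelium. Of all genes 3.53%, 1.55% and 7.19% rose on these days and 2.45%, 0.724% and 4.26% fell. In isografts against normal Lewis endothelium 2, 3 and 3 of the 10 genes rose and 0 fell. Of all genes 1.06%, 1.8% and 2.61% rose there and 0.422%, 0.732% and 0.556% fell. The median difference over the 10 genes was 0.55, 0.25 and 0.69 log2 in allografts and 0.43, 0.62 and 0.72 log2 in isografts, with medians over all genes between -0.01 and 0.03. The 3 days of a graft type share their normal hearts, so they are not independent of each other.

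**Figure D1:**
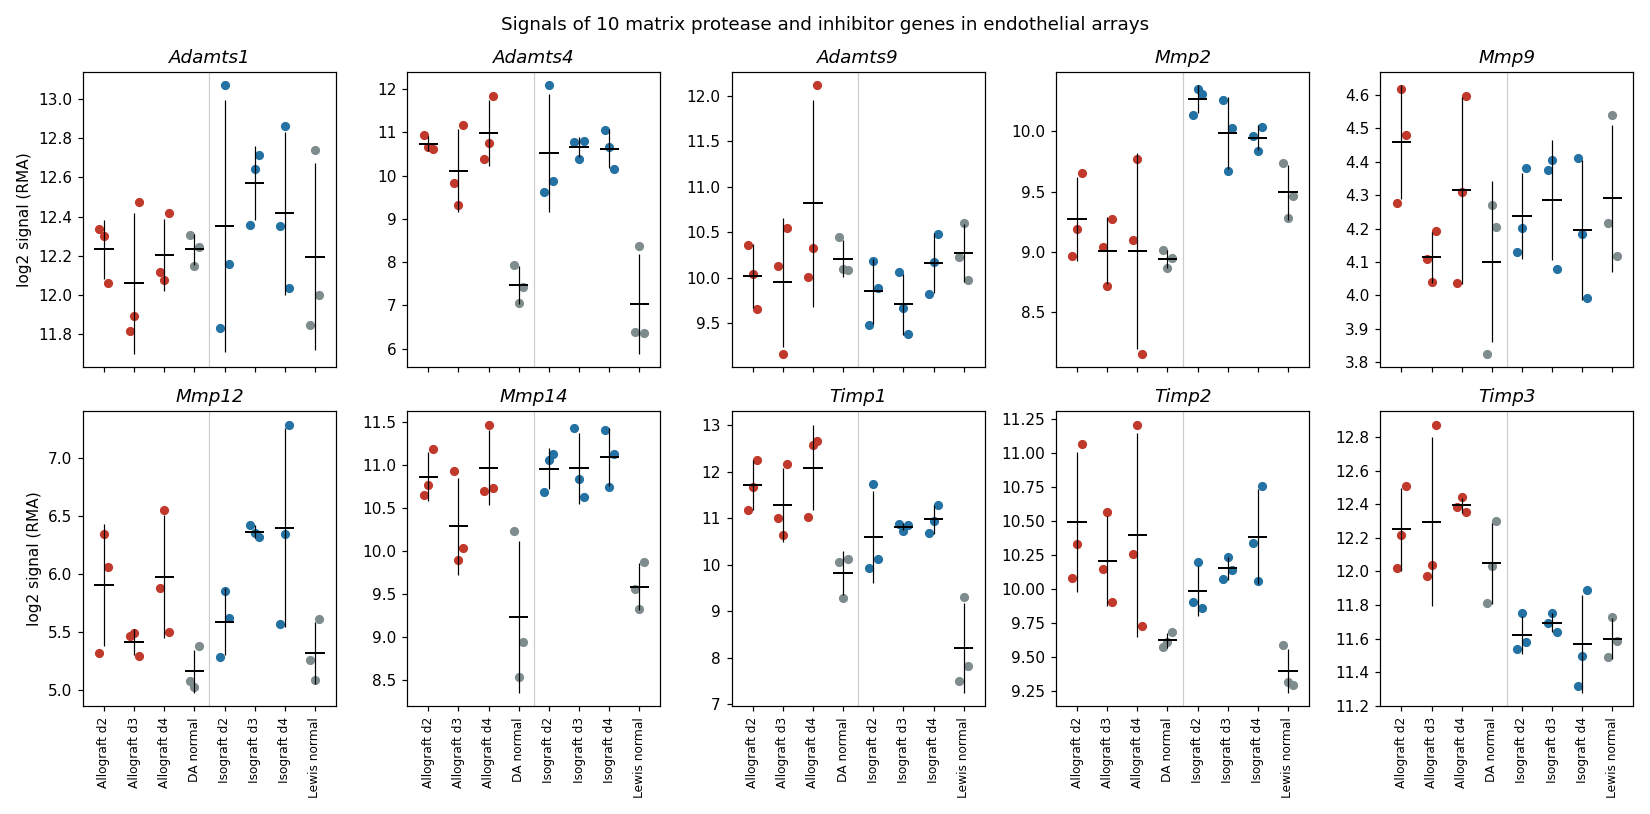
Log2 signals of the 10 genes on the 24 endothelial arrays, with 3 points a group, the group mean as a line and the standard deviation (SD) as a bar; allografts are red, isografts blue and normal hearts grey, and each panel has its own scale. In Adamts4 every graft array lies above every array of normal endothelium, while in Adamts1 every graft group overlaps its normal hearts.

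Adamts4 (chr13:86203011-86212500) encodes an aggrecanase, a secreted enzyme that cuts aggrecan and versican. Its log2 signals in allografts were 10.93, 10.67 and 10.61 on day 2, 9.82, 9.32 and 11.18 on day 3 and 10.38, 10.74 and 11.83 on day 4, against 7.94, 7.05 and 7.44 in normal DA endothelium. In isografts they were 9.62, 12.09 and 9.88 on day 2, 10.78, 10.39 and 10.79 on day 3 and 11.06, 10.66 and 10.15 on day 4, against 6.39, 8.37 and 6.36 in normal Lewis endothelium. Every graft array was above every normal array, and among the 6 graft groups each overlapped its neighbour in the order of means. The rise was 9.60-fold on day 2, 6.21-fold on day 3 and 11.4-fold on day 4 in allografts (3.26, 2.63 and 3.51 log2, standard error, SE, 0.59, adjusted p = 0.00175, 0.0170 and 0.000489). In isografts it was 11.2-fold, 12.2-fold and 12.0-fold (3.49, 3.61 and 3.58 log2, SE 0.59, adjusted p = 0.00258, 0.00137 and 0.000991). Arrays numbered 2 of isograft day 2 and of normal Lewis endothelium were the highest of their groups in Adamts4, and also in Timp1 and Adamts1. Without both, a choice made after the data were seen, the isograft day 2 rise of Adamts4 was 3.37 log2 (adjusted p = 0.00185). The allograft call on day 3 was lost without normal DA replicate 2 (2.42 log2, adjusted p = 0.0993), normal DA replicate 3 (2.62 log2, 0.0638) or allograft day 3 replicate 3 (2.10 log2, 0.128). With the compared groups alone in the fit the isograft day 2 rise had an adjusted p of 0.0686.

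The promoters of Adamts4 and Timp1, the genes with the largest rises, are shown with that of Mmp12, the one that held an AP-1 motif. They are taken from RefSeq (build GRCr8), run from 250 bases before to 50 after the start site, and were in the table for 7 of the 10 genes (Adamts1, Adamts4, Adamts9, Mmp12, Timp1, Timp2 and Timp3). Capitals mark matches to TGANTCA, the AP-1 motif of Fos and Jun proteins, or to TTCNNNGAA, the motif of Stat proteins called GAS. Both motifs read the same on either strand, and no matches overlapped. Adamts4 lies at chr13:86202761-86203060 on the plus strand, Timp1 at chrX:3771073-3771372 on the minus strand, inside the annotated span of the gene, and Mmp12 at chr8:12866402-12866701 on the plus strand.
Adamts4: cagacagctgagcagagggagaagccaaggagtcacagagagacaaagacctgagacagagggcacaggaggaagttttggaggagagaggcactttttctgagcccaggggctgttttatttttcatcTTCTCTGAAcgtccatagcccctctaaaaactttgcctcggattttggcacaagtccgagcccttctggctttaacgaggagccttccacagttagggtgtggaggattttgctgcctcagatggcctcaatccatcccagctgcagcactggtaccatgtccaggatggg
Timp1: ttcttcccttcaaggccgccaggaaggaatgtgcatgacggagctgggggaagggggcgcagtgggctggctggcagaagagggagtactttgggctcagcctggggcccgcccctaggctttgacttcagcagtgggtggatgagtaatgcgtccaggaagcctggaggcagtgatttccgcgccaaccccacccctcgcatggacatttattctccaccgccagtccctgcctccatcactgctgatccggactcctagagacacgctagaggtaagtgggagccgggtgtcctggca
Mmp12: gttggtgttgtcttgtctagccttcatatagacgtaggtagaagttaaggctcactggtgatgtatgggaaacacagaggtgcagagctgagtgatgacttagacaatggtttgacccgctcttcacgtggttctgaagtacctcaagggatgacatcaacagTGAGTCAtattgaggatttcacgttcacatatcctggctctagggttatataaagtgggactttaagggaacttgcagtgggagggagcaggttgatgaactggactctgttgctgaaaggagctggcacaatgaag
The GAS match of Adamts4, TTCTCTGAA, began 121 bases before the start site, and the AP-1 match of Mmp12, TGAGTCA, 87 bases before it. The other 5 promoters, that of Timp1 among them, held no exact match to either motif, and near matches were not sought. Among 33469 rat promoters of this length 8.87% held the GAS motif and 7.33% the AP-1 motif. A match of letters is a description of the sequence and shows no binding, and the lack of an exact match does not show that a site is absent.

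Timp1 (chrX:3766509-3772578) encodes a secreted inhibitor of most matrix metalloproteinases, with little hold on Mmp14. Its log2 signals in allografts were 11.18, 11.68 and 12.26 on day 2, 11.01, 10.64 and 12.17 on day 3 and 11.02, 12.58 and 12.66 on day 4, against 10.06, 9.28 and 10.13 in normal DA endothelium. In isografts they were 9.93, 11.72 and 10.12 on day 2, 10.87, 10.72 and 10.85 on day 3 and 10.69, 10.93 and 11.29 on day 4, against 7.49, 9.31 and 7.83 in normal Lewis endothelium. No graft group overlapped the normal hearts of its own strain. Over days 2, 3 and 4 the allograft differences were 1.88, 1.45 and 2.26 log2 (SE 0.52, adjusted p = 0.0344, 0.206 and 0.00692), so that Timp1 rose on days 2 and 4. In isografts it rose on each day, by 2.38, 2.60 and 2.76 log2 (SE 0.52, adjusted p = 0.0189, 0.00712 and 0.00354). These rises amount to 3.69-fold and 4.81-fold on days 2 and 4 in allografts and to 5.22-fold, 6.08-fold and 6.78-fold in isografts. The allograft day 2 call was lost without normal DA replicate 1, 2 or 3 (2.00, 1.61 and 2.04 log2, adjusted p = 0.0581, 0.168 and 0.0672) and without allograft day 2 replicate 2 or 3 (1.90 and 1.61 log2, 0.0721 and 0.146). The isograft day 2 call was lost without normal Lewis replicate 1 or 3 (2.02 and 2.19 log2, 0.125 and 0.0962) and without isograft day 2 replicate 2 (1.82 log2, 0.182), and the day 3 call without normal Lewis replicate 1 (2.24 log2, 0.0637). With the compared groups alone in the fit the adjusted p was 0.0511 for allograft day 4 and 0.110 for isograft day 2.

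Mmp14 (chr15:31857824-31867049) encodes a protease anchored in the cell membrane, which cuts collagen and activates the proenzyme of Mmp2. Its log2 signals in allografts were 10.65, 10.76 and 11.18 on day 2, 10.93, 9.89 and 10.03 on day 3 and 10.70, 11.47 and 10.73 on day 4, against 10.23, 8.54 and 8.94 in normal DA endothelium. In isografts they were 10.68, 11.06 and 11.13 on day 2, 11.42, 10.83 and 10.63 on day 3 and 11.41, 10.74 and 11.12 on day 4, against 9.56, 9.33 and 9.87 in normal Lewis endothelium. Normal DA replicate 1 was the highest of its group and overlapped allograft day 3, and the other 5 graft groups lay above their normal hearts. In allografts Mmp14 rose on day 2, by 1.63 log2, and on day 4, by 1.73 log2, with a day 3 value of 1.05 log2 that did not pass (SE 0.35, adjusted p = 0.00713, 0.00261 and 0.157 for days 2, 4 and 3). In isografts the day 2 value of 1.37 log2 did not pass (adjusted p = 0.0556, against 0.0470 with the replicate number as a block), and Mmp14 rose on day 3 by 1.38 log2 and on day 4 by 1.50 log2 (SE 0.35 for each, adjusted p = 0.0398 and 0.0183). Without 1 array the allograft day 3 value ran from 0.70 to 1.55 log2 (adjusted p up to 0.681). It passed only without normal DA replicate 1 (1.55 log2, adjusted p = 0.0112). Without normal DA replicate 2 the allograft day 2 value was 1.28 log2 (0.0609). The isograft day 3 call was lost without any 1 of normal Lewis replicates 1, 2 and 3 (1.36, 1.25 and 1.52 log2, adjusted p = 0.127, 0.167 and 0.0600) or isograft day 3 replicates 1, 2 and 3 (1.15, 1.44 and 1.54 log2, 0.161, 0.109 and 0.0631). The day 4 call was lost without normal Lewis replicate 1 or 2 (1.49 and 1.38 log2, 0.0600 and 0.102) or isograft day 4 replicate 1 or 3 (1.34 and 1.49 log2, 0.101 and 0.0739). With the compared groups alone in the fit the adjusted p was 0.0695 and 0.0922 for allograft days 2 and 4 and 0.0122 for isograft day 2, which also passed without dim genes (0.0386) and with centred arrays (0.0481). The arrays numbered 2 of isograft day 2 and normal Lewis endothelium, high in Adamts4, were not the highest of their groups in Mmp14. Without both the isograft values were 1.25 log2 on day 3 and 1.38 log2 on day 4 (adjusted p = 0.164 and 0.107). These are the log2 values found without normal Lewis replicate 2 alone, as isograft day 2 is in neither comparison. A second, dimmer probe set of Mmp14 gave 0.49, 0.28 and 0.81 log2 in allografts and 0.11, 0.29 and 0.40 log2 in isografts and passed on allograft day 4.

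**Figure D2:**
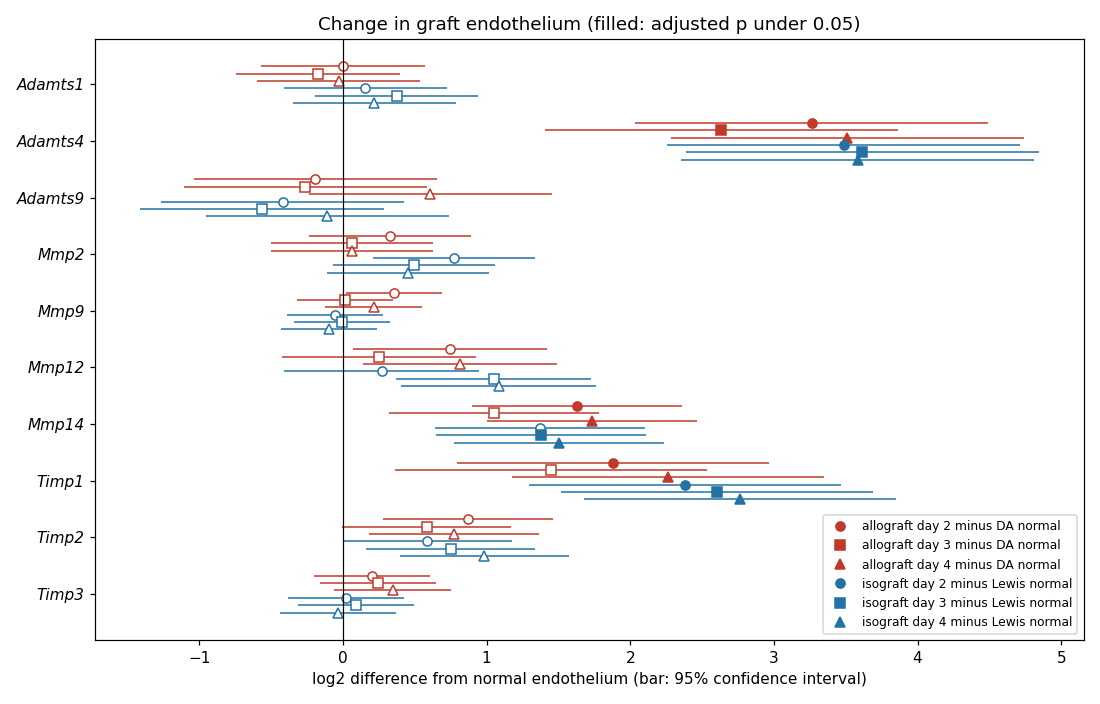
Log2 difference of each graft group from the normal endothelium of its strain for the 10 genes, with 95% confidence intervals from limma (n = 3 arrays a group); allografts are red, isografts blue, days 2, 3 and 4 are circles, squares and triangles, and filled symbols passed. The intervals of Adamts4 lie above 1 log2 in all 6 comparisons, and those of Adamts1 and Adamts9 hold 0 in all 6.

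Mmp12 (chr8:12866652-12876554), the elastase of macrophages, had no call against normal endothelium. Its log2 signals in allografts were 5.32, 6.34 and 6.05 on day 2, 5.46, 5.49 and 5.29 on day 3 and 5.88, 6.55 and 5.50 on day 4, against 5.08, 5.03 and 5.37 in normal DA endothelium. In isografts they were 5.28, 5.86 and 5.62 on day 2, 6.42, 6.35 and 6.32 on day 3 and 5.57, 6.34 and 7.29 on day 4, against 5.26, 5.08 and 5.61 in normal Lewis endothelium. Isograft day 3 and allograft day 4 stood clear of their normal hearts, whereas isograft day 4 spread widely and touched them. The differences were 0.75, 0.25 and 0.82 log2 in allografts (SE 0.32, adjusted p = 0.207, 0.940 and 0.119) and 0.27, 1.05 and 1.08 log2 in isografts (adjusted p = 0.900, 0.106 and 0.0808). Without 1 array the isograft day 4 value ran from 0.64 to 1.50 log2 (adjusted p up to 0.459). It passed in 1 of 6 such removals, that of isograft day 4 replicate 1 (1.50 log2, adjusted p = 0.0122). With the compared groups alone the isograft day 3 value had an adjusted p of 0.00793. The macrophage list rose beside it, with 10, 8 and 11 of 11 genes up in allografts and 4, 8 and 9 in isografts and 0 down in any graft group, and its part in the signals of Mmp12, Mmp14 or the TIMPs was not tested.

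Mmp9 (chr3:174103474-174111434), a gelatinase stored in granules of neutrophils, was dim in the endothelial preparations. It was left out, like Mmp12, by the filter on dim genes described with the alternatives. Its log2 signals ran from 4.04 to 4.62 in allografts and from 3.83 to 4.27 in normal DA endothelium. In isografts they ran from 3.99 to 4.41, and in normal Lewis endothelium from 4.12 to 4.54. Allograft day 2 lay just above normal DA endothelium, and the other 5 graft groups overlapped their normal hearts. Differences of -0.09 to 0.36 log2 did not pass (SE 0.16, adjusted p at least 0.225). Neutrophil genes, of which 6 were measured, rose in allografts on day 2 (5 of 6, with 0 on days 3 and 4) and in isografts 0 rose.

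Mmp2 (chr19:30327643-30355856), the other gelatinase, had no call. Its log2 signals were 8.97, 9.19 and 9.65 on allograft day 2, 9.04, 8.72 and 9.27 on day 3 and 9.10, 9.77 and 8.16 on day 4, against 9.02, 8.87 and 8.95 in normal DA endothelium. In isografts they were 10.14, 10.35 and 10.31 on day 2, 10.26, 9.67 and 10.03 on day 3 and 9.97, 9.84 and 10.04 on day 4, against 9.74, 9.28 and 9.46 in normal Lewis endothelium. Isograft arrays of days 2 and 4 lay above all normal Lewis arrays, and those of day 3 overlapped them. The isograft differences were 0.77, 0.49 and 0.45 log2 (SE 0.27, adjusted p = 0.239, 0.516 and 0.478), and the allograft ones 0.33, 0.07 and 0.06 log2 (adjusted p = 0.587, 0.993 and 0.938). Normal DA endothelium stood at -0.55 log2 from normal Lewis endothelium without passing (adjusted p = 0.617).

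Timp2 (chr10:104041604-104089214) blocks many metalloproteinases and, bound to Mmp14, brings the proenzyme of Mmp2 to the cell surface. Its log2 signals in allografts were 10.08, 10.33 and 11.07 on day 2, 10.15, 10.56 and 9.91 on day 3 and 10.26, 11.21 and 9.73 on day 4, against 9.58, 9.61 and 9.68 in normal DA endothelium. In isografts they were 9.91, 10.20 and 9.86 on day 2, 10.07, 10.24 and 10.14 on day 3 and 10.34, 10.06 and 10.76 on day 4, against 9.59, 9.32 and 9.30 in normal Lewis endothelium. Each of the 6 graft groups lay wholly above its normal hearts, yet none passed. The differences were 0.87, 0.58 and 0.77 log2 in allografts (SE 0.28, adjusted p = 0.0756, 0.475 and 0.0857) and 0.59, 0.75 and 0.98 log2 in isografts (adjusted p = 0.501, 0.225 and 0.0655). Without 1 array the allograft day 2 value ran from 0.58 to 1.08 log2 (adjusted p up to 0.297). It passed only without allograft day 2 replicate 1 (1.08 log2, adjusted p = 0.0443). The allograft day 4 value ran from 0.37 to 1.11 log2 (adjusted p up to 0.476) and passed only without allograft day 4 replicate 3 (1.11 log2, 0.0177). With the compared groups alone Timp2 passed on isograft days 3 and 4 (0.0152 and 0.0202). Its second probe set gave 0.18, -0.02 and -0.07 log2 in allografts and 0.33, 0.46 and 0.50 log2 in isografts, so both probe sets disagreed on allografts.

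Timp3 (chr7:19408539-19459558) encodes the inhibitor that stays bound to the matrix, and 0 of its 6 graft comparisons passed. Its log2 signals ran from 11.97 to 12.87 in allografts, against 11.81 to 12.30 in normal DA endothelium, and from 11.32 to 11.89 in isografts, against 11.49 to 11.73 in normal Lewis endothelium. Every array of DA hearts except normal DA replicate 1, at 11.81, was above every array of Lewis hearts. The differences from normal endothelium were 0.20, 0.25 and 0.35 log2 in allografts and 0.02, 0.09 and -0.03 log2 in isografts (SE 0.19, adjusted p at least 0.305). Normal DA minus normal Lewis endothelium was 0.45 log2 by the probe set used and 0.54, 0.68 and 0.93 log2 by the 3 others, and none passed (adjusted p = 0.522 for the probe set used).

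Adamts1 (chr11:38418565-38427384), which cuts versican and restrains vessel growth, had no call in either graft type. Its log2 signals ran from 11.82 to 12.47 in allografts, against 12.15 to 12.31 in normal DA endothelium. In isografts they ran from 11.83 to 13.07, against 11.85 to 12.74 in normal Lewis endothelium. The differences were -0.00, -0.17 and -0.03 log2 in allografts and 0.16, 0.38 and 0.22 log2 in isografts, with 95% confidence intervals that reached at most 0.94 log2 up and 0.74 log2 down (adjusted p at least 0.683). Changes within these bounds are not excluded.

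Adamts9 (chr4:126847726-127019924), which also cuts versican and aggrecan, had no call either. Its log2 signals in allografts were 10.36, 10.04 and 9.65 on day 2, 10.14, 9.17 and 10.54 on day 3 and 10.01, 10.33 and 12.12 on day 4, against 10.44, 10.10 and 10.08 in normal DA endothelium. In isografts they ran from 9.39 to 10.48, against 9.97 to 10.61 in normal Lewis endothelium. Allograft day 4 replicate 3 was the highest of all 24 arrays. The day 4 difference was 0.61 log2 with it and -0.04 log2 without it (adjusted p = 0.416 and 0.982), and the other 5 differences lay between -0.56 and -0.11 log2 (SE 0.41, adjusted p at least 0.681). The second, dimmer probe set gave values between -0.19 and 0.13 log2.

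Allografts and isografts were compared through the difference of their changes from normal endothelium, which asks what the mismatch of donor and recipient added. Donor strain differed too, DA in allografts and Lewis in isografts, so mismatch and donor strain cannot be told apart. On days 2, 3 and 4 and in the mean of the days, 0 of the 10 genes passed in limma, and 0 had an unadjusted p under 0.05. Over all genes 0%, 0%, 0.00703% and 0.00703% passed, which is 0, 0, 1 and 1 gene. The mean difference of changes, allograft minus isograft, was -0.43 log2 for Adamts4 (95% confidence interval -1.85 to 0.99), -0.72 log2 for Timp1 (-1.97 to 0.54) and 0.05 log2 for Mmp14 (-0.79 to 0.90). Differences inside these intervals are not excluded. Between day 4 and day 2, 0 of the 10 genes passed in allografts (0 at an unadjusted p under 0.05) and 0 in isografts (1 at an unadjusted p under 0.05, Mmp12 at 0.81 log2). Of all genes 0.38% passed in allografts and 0.0352% in isografts. Adamts4 stood at 0.25 log2 on allograft day 4 relative to day 2 (95% confidence interval -0.98 to 1.48) and at 0.10 log2 in isografts (-1.13 to 1.33).

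Normal hearts of both strains were compared to ask where the grafts started from. Of the 10 genes 0 passed, 2 had an unadjusted p under 0.05 (Timp1 and Timp3), and 1.01% of all genes passed. Timp1 was 1.62 log2 higher in normal DA than in normal Lewis endothelium (SE 0.52, adjusted p = 0.245), with means of 9.82 ± 0.47 and 8.21 ± 0.97 (SD, n = 3 each) and overlapping values. Without both arrays numbered 2 that stood high, a choice made after the data were seen, the difference was 2.17 log2 (adjusted p = 0.0338). Without any 1 array of either normal group it ran from 1.25 to 2.17 log2 and did not pass (adjusted p at least 0.0825). Isograft day 2 is not part of this comparison, so its array entered only through the shared estimate of the spread. The mean signal of Timp1 was 11.71, 11.27 and 12.09 in allografts on days 2, 3 and 4 and 10.59, 10.81 and 10.97 in isografts, and the ranges of all neighbours in the order of the 8 groups overlapped.

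Leukocytes from allografts were set beside allograft endothelium to see in which cells the genes had their signal. The median gap between both sets of arrays, 0.33 log2 over all genes, was removed, and as separate normalization was assumed, no test was made. A gene counted as higher on a side where the means lay at least 2-fold apart and the 4 and 9 arrays did not overlap. By this rule Mmp9, Mmp12 and Timp2 (3 of 10) were higher in leukocytes, as were 8.61% of all genes, and Adamts1, Adamts4, Adamts9, Mmp2 and Timp3 (5 of 10) were lower in leukocytes, as were 8.64% of all genes. Mmp12 had 9.40 on day 2, 10.07 and 7.97 on day 3 and 9.88 on day 4 in leukocytes, against 5.29 to 6.55 with a median of 5.50 in allograft endothelium, a gap of 3.57 log2. Timp2 had 12.67, 12.39, 12.15 and 12.22 in leukocytes in the same order, against 9.73 to 11.21 with a median of 10.26 in endothelium (1.99 log2). Mmp9 had 6.39, 6.10, 5.67 and 6.73 in leukocytes, against 4.04 to 4.62 with a median of 4.28 in endothelium (1.93 log2). The rule itself required these 3 genes to be clear of the endothelial range on each leukocyte array. The endothelial signals of Mmp9 and Mmp12 were dim and no detection calls were used, so their gaps may understate the difference.

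Of the genes that rose in grafts, Adamts4 lay on the endothelial side and the others on neither. Adamts4 had 7.11, 7.54, 8.18 and 8.10 in leukocytes, against 9.32 to 11.83 with a median of 10.67 in allograft endothelium, a gap of -2.88 log2. Mmp14 had 11.06, 11.04, 10.40 and 10.45 in leukocytes, against 9.89 to 11.47 with a median of 10.73 (0.03 log2). Timp1 had 10.71, 10.34, 10.04 and 11.15 in leukocytes, against 10.64 to 12.66 with a median of 11.68 (-1.13 log2), and the ranges overlapped. The gaps of the other endothelial-side genes were -2.97 log2 for Adamts1, -3.24 log2 for Adamts9, -1.71 log2 for Mmp2 and -2.48 log2 for Timp3. Timp3 spread widely among leukocytes, with 8.62 on day 2, 10.04 and 11.54 on day 3 and 9.13 on day 4. In the same order Adamts1 had 7.96, 9.38, 10.39 and 9.05, Adamts9 had 6.24, 7.23, 7.71 and 6.91, and Mmp2 had 6.70, 7.52, 8.11 and 7.19. The 11 endothelial markers had summed linear signals of 5227 on day 2, 11681 and 20420 on day 3 and 6032 on day 4 in leukocytes as deposited. The arrays high in Timp3, Adamts1, Adamts9 and Mmp2 were thus also high in endothelial transcript. The part of endothelial transcript in the leukocyte signals and gaps of these genes was not tested. With no gap removed Mmp2 stood at -1.39 log2 with overlapping ranges.

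**Figure D3:**
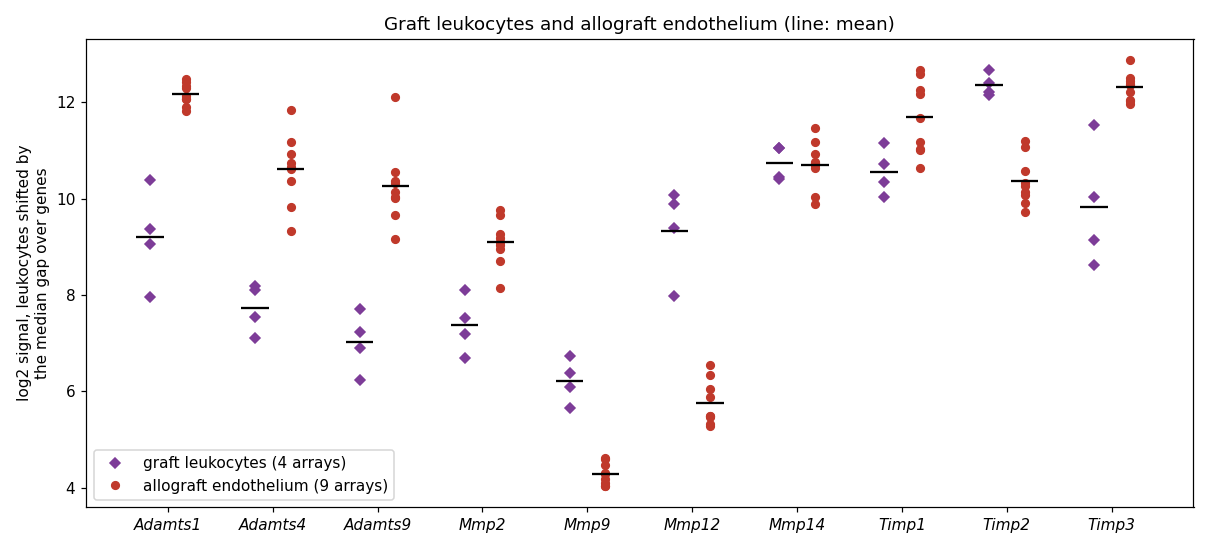
Log2 signals of the 10 genes in graft leukocytes (4 arrays, purple diamonds, shifted down by the median gap of 0.33 log2) and in allograft endothelium (9 arrays, red circles), with means as lines. Mmp9, Mmp12 and Timp2 lie higher in leukocytes, Mmp14 and Timp1 overlap, and the other 5 lie lower in leukocytes.

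Genes whose signals were most alike over the 24 endothelial arrays were sought for each of the 10, with Pearson's r as the measure. The arrays share groups, strain and graft status, so r describes a common pattern over groups and is given without a p. Adamts4 was nearest to Selp (0.96), Fgf23 (0.95) and Sele (0.95), of which Selp and Sele encode the P- and E-selectin of activated endothelium. Timp1 was nearest to Ccl7 (0.96), Ccl2 (0.95) and Pmp22 (0.95), of which Ccl2 and Ccl7 are chemokines for monocytes. Mmp14 was nearest to Ppic (0.93), Slc7a7 (0.93) and Fam167b (0.90), and Timp2 to Ctsa (0.92), Clec4a1 (0.90) and C1qtnf5 (0.90). Adamts1 was nearest to Noct (0.93), Slc38a2 (0.91) and Bcl10 (0.88), and Timp3 to Eeig1 (0.91), C10h5orf15 (0.89) and Pla1a (0.88). The nearest genes of Adamts9 were Sergef, Arf1 and Kcnj15 (0.87, 0.86 and 0.85), those of Mmp2 were Itm2c, Myzap and Rab27a (0.87, 0.87 and 0.86), those of Mmp12 were Col13a1, Nppc and Trem2 (0.80, 0.80 and 0.79), and those of the dim Mmp9 were Pitx3, Wdr55 and Hes3 (0.74, 0.71 and 0.70).

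Other genes of matrix breakdown were counted by family. Of 13 other metalloproteinases 1, 0 and 2 rose and 0, 0 and 2 fell in allografts on days 2, 3 and 4, and none passed in isografts. Mmp19 rose by 0.69 and 0.79 log2 on allograft days 2 and 4 and Mmp23 by 1.00 log2 on day 4, while on day 4 Mmp15, a membrane-anchored relative of Mmp14, fell by 1.27 log2 and Mmp17 fell by 0.48 log2. Of 9 other ADAMTS genes 1, 1 and 3 rose and 0, 1 and 1 fell in allografts, and 1 rose and 0 fell on each day in isografts. Adamts7 was the riser on each day, by 0.81, 0.58 and 0.81 log2 in allografts and 0.61, 0.62 and 0.60 log2 in isografts (SE 0.12, adjusted p at most 0.0105). Adamts8 and Adamts12 rose on allograft day 4, by 2.21 and 1.38 log2, while Adamts5, the other main aggrecanase, fell by 1.23 log2 on allograft day 3 and by 1.03 log2 on day 4. In both families rises stood beside falls, as they did over all genes. Of all genes 3.53%, 1.55% and 7.19% rose and 2.45%, 0.724% and 4.26% fell on allograft days 2, 3 and 4. In isografts 1.06%, 1.8% and 2.61% rose and 0.422%, 0.732% and 0.556% fell. These shares also belong beside the family counts that follow.

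Membrane proteases of the ADAM family, 7 measured, had 1, 0 and 0 rises and 1, 1 and 0 falls in allografts and 0, 1 and 1 rises with 0 falls in isografts. Adam8, a protease of leukocytes, rose by 1.61 log2 on allograft day 2, Adam17, which sheds tumour necrosis factor, fell by 0.53 log2 on day 2 and by 0.58 log2 on day 3, and Adam9 rose by 1.07 and 0.97 log2 on isograft days 3 and 4. Of 8 other inhibitors 1, 0 and 2 rose and 0, 0 and 1 fell in allografts, and 0, 1 and 0 rose and 0 fell in isografts. Slpi, an inhibitor of neutrophil elastase, rose by 2.90 and 2.11 log2 on allograft days 2 and 4, and A2m, a broad trap of proteases, by 1.34 log2 on day 4. Reck, a membrane-bound inhibitor of metalloproteinases, fell by 0.63 log2 on allograft day 4, and Tfpi2 rose by 1.61 log2 on isograft day 3. Of 8 activators and cofactors Plau, which encodes the urokinase that makes plasmin, rose by 1.52 log2 on allograft day 4 and 1.75 log2 on isograft day 4 (adjusted p = 0.0376 and 0.0418), and none of the others passed on any day.

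Cathepsins, lysosomal proteases of which some also cut matrix, were 8, of which 4, 3 and 5 rose in allografts and 3, 5 and 5 in isografts, with 0 falls. Ctss, made by antigen-presenting cells, rose by 3.16, 2.59 and 3.51 log2 in allografts and 1.79, 2.80 and 3.22 log2 in isografts (SE 0.33, adjusted p at most 0.00525). Ctsc and Ctsz rose on each day in both graft types, by 0.95 to 1.93 and by 1.10 to 2.01 log2. Ctsk, the collagen-cutting cathepsin of bone, rose by 1.08 log2 on allograft day 4 and by 1.24 and 1.15 log2 on isograft days 3 and 4. By the 2-fold rule leukocytes had the higher signal in 6 of the 8 cathepsins, and the part of leukocytes in these rises was not tested. Of 21 matrix genes that such enzymes cut, 3, 1 and 7 rose in allografts and 1, 4 and 5 in isografts, with 0 falls. Vcan, the versican that Adamts1, Adamts4 and Adamts9 cut, rose by 1.88 and 2.07 log2 on allograft days 2 and 4 and by 1.82 log2 on isograft day 3 (SE 0.44, adjusted p = 0.0130, 0.00402 and 0.0307). Tnc, a matrix protein of wounds, rose by 3.86, 2.95 and 4.96 log2 in allografts and by 2.94 and 3.77 log2 on isograft days 3 and 4. Spp1, or osteopontin, rose by 4.48 and 3.42 log2 on allograft days 2 and 4 and by 3.36, 3.25 and 2.66 log2 in isografts. Col1a1 rose by 4.14 log2 on allograft day 4 and 4.72 log2 on isograft day 4, and Fn1, fibronectin, by 1.28 log2 on allograft day 4 and by 1.20 and 1.19 log2 on isograft days 3 and 4. Leukocytes minus allograft endothelium stood at 3.04 log2 for Spp1, 2.24 log2 for Vcan and 0.99 log2 for Fn1. For Tnc and Col1a1 this gap was -1.80 and -1.30 log2. By the 2-fold rule 0 of the 21 were higher in leukocytes and 9 in endothelium, and the part of leukocytes was not tested. On day 4 fibroblast genes rose beside the matrix genes, 4 of 9 in each graft type with 0 falls, and their part was not tested. Both lists hold Col1a1, Col3a1, Dcn and Lum.

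**Figure D4:**
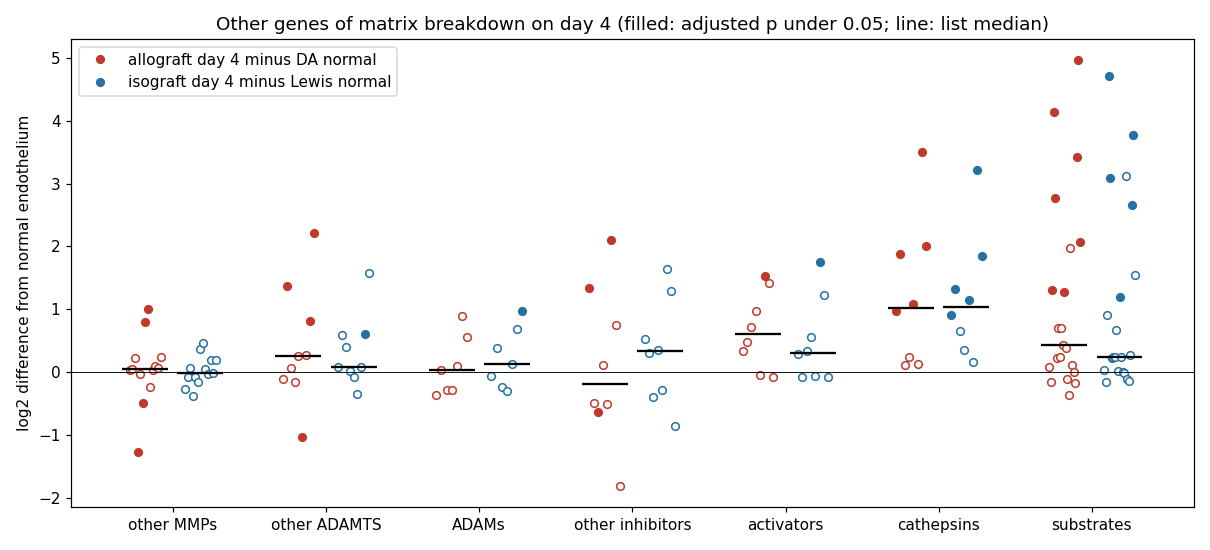
Log2 differences from normal endothelium on day 4 for 7 further families, with 1 point a gene, filled where the adjusted p was under 0.05, and the family median as a line; allografts are red and isografts blue. Cathepsins had medians of 1.02 and 1.03 log2, against 0.05 and -0.01 log2 for the other metalloproteinases.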

How the data were processed

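RNA had been labelled with biotin by the one-cycle Affymetrix protocol, per the labels. The deposited log2 signals per probe set had been made by the authors with RMA in the affy package, per the submitters' processing notes (no version is stated there). Array medians were 6.51 to 6.59 (24 endothelial) and 6.83 to 6.88 (4 leukocyte), which was taken as a sign of separate normalization. Its effect cannot be told apart from that of cell type. Of 31099 probe sets, 20826 matched a single gene of the platform annotation and gave 14217 genes, each by its probe set with the highest endothelial mean; 57 controls, 436 with several genes and 9780 without an entry were left out. limma 3.58.1 (R 4.3.3, the data.table package 1.17.8) was fitted across all genes on the 24 endothelial arrays with 1 mean per group (lmFit, eBayes, 16 residual degrees of freedom), p-values adjusted after Benjamini and Hochberg in each of 13 comparisons, threshold 0.05. On simulated data for the day 4 allograft comparison of 14217 genes, 100 genes were shifted by 1 log2 and 100 by 2 log2, of which 81% and 99% passed, with 9 false calls; for isografts these were 81%, 99% and 12, and for the day 4 difference of changes 61%, 97% and 6. The shifted genes were drawn at random from all genes, whose median SE in the graft comparisons was 0.165 log2, with independent noise. Adamts4, Timp1, Adamts9, Mmp14 and Mmp12 had larger SEs, given above, so these shares do not hold for them. Same-numbered arrays of isograft day 2 and normal Lewis endothelium deviated together (r 0.29, 0.35 and 0.41), as in no other graft comparison for all 3 numbers, so the value with the block stands beside that result where the call differs. The lists and comparisons, like the 10 genes, were chosen with earlier results of these data known. Named from each list were up to 4 genes per graft type called on the most days (ties by the larger mean change), and per gene the 3 most correlated. Array signals have no counting depth, and the number of arrays limits precision.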

Additional observations from a re-analysis of the deposited data

How the results depend on the processing

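The 13 counts of called genes were recomputed with a replicate block, with the compared groups alone, without dim genes (7795 genes kept, 8 of the 10 genes among them), with every probe set tested, with a trend and robust prior, with each array centred on its median, and without each array in turn. Left out together, after the data were seen, were the high arrays numbered 2 of isograft day 2 and normal Lewis endothelium. Among the graft differences of the 10 genes and the strain differences of Mmp2, Timp1 and Timp3, the 15 called ones had the same direction in all 188 recomputations and passed in 158, and the 48 others passed in 12 of 589. Counts differed by over 1.5 times with the compared groups alone, at 1 against 3 on allograft day 4, 1 against 2 on isograft day 2 and 5 against 3 on isograft day 3, and without both high arrays, at 1 against 0 for strain (Timp1). The cause was not tested. Without 1 array the counts ran from 1 to 4, 0 to 2 and 3 to 4 on allograft days 2, 3 and 4, from 1 to 2, 1 to 2 and 2 to 3 on isograft days 2, 3 and 4, and stayed at 0 for the difference of changes, time and strain. With the replicate number as a block, the count on isograft day 2 was 3, with Mmp14 gained, and no other count moved. Deviations of arrays with 1 number correlated from -0.22 to 0.43 in 18 pairs, 10 of them above 0.1, and 9 of 18 graft arrays correlated best with their own number, so the numbers were not taken as pairs, except that isograft day 2 and normal Lewis endothelium had all 3 pairs above 0.1. In the leukocyte comparison, without removal of the gap or with each array centred, the directions of the 8 genes counted were the same. Differences that had not passed and changed sign were these. With centred arrays Mmp2 stood at -0.0212 log2 on allograft day 4 and Timp3 at -0.0073 log2 on isograft day 2. Without both high arrays Mmp9 stood at 0.0887, 0.12 and 0.0291 log2 on isograft days 2, 3 and 4, Adamts9 at 0.0595 and Timp3 at 0.0321 log2 on day 4. Without 1 array, Adamts1 ran from -0.0523 to 0.0861 and -0.14 to 0.0337 log2 on allograft days 2 and 4 and from -0.20 to 0.43 and -0.0026 to 0.49 log2 on isograft days 2 and 4. Adamts9 ran from -0.56 to 0.13 and -0.0406 to 1.01 log2 on allograft days 3 and 4 and from -0.27 to 0.0595 log2 on isograft day 4. Mmp2 ran from -0.0667 to 0.21 and -0.32 to 0.49 log2 on allograft days 3 and 4. Mmp9 ran from -0.12 to 0.0981 log2 on allograft day 3 and from -0.14 to 0.0708, -0.0912 to 0.12 and -0.20 to 0.0291 log2 on isograft days 2, 3 and 4. Timp3 ran from -0.0425 to 0.41 log2 on allograft day 3 and from -0.0412 to 0.0874 and -0.19 to 0.0921 log2 on isograft days 2 and 4.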
